A study of Mus musculus with 104 samples.

Results

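The comparison was of heart with skeletal muscle at postnatal day 1 (P1), in the mouse time course of DNA methylation measured by reduced representation bisulfite sequencing (RRBS). In RRBS the DNA is cut with MspI, which enriches for fragments rich in CpG, and bisulfite treatment converts unmethylated cytosines, so the methylation level of a CpG is the percent of its reads that kept a cytosine. The CpGs compared were those at the same position in both the heart and the muscle table with a value in at least 3 libraries of each tissue at P1. This rule kept 31761 of the 31839 CpG cytosines that the tables share, out of 53520 in the heart table, 46085 in the muscle table and 91022 in any of the 3 tissue tables of the series. The heart group had 4 libraries (replicates 2, 3, 4 and 5) and the muscle group had 5 (replicates 1 to 5), all from untreated C57BL/6 mice (C57BL/6J per the study's methods) of that age kept under standard conditions. Sex and the muscle dissected are not given, and the labels do not say whether a heart and a muscle library with the same number came from one pup. Both are whole tissues, so different proportions of cell types and different methylation within one cell type cannot be told apart, and the p-values measure the spread between these libraries.

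Methylation of CpGs outside promoters differs between cell types, and low methylation away from promoters commonly marks regulatory elements that are bound by transcription factors. Heart and skeletal muscle share much of the sarcomere machinery but arise from different mesoderm. Heart muscle depends on GATA, T-box and NK2 homeobox factors, whereas skeletal muscle forms under the myogenic basic helix-loop-helix factors MyoD, Myf5, myogenin and Myf6, which bind E-box sequences. Hox genes record position along the body axis, and most skeletal muscle comes from somites that express them.

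At P1, 4120 of the 31761 CpGs (13.0%) were called different between heart and muscle by limma. A call required a Benjamini-Hochberg adjusted p no higher than 0.1 and group means more than 5 percentage points apart. Of these, 2823 were higher in heart (8.89% of all CpGs tested) and 1297 were higher in muscle (4.08%), so 68.5% of the calls were higher in heart. An unadjusted p under 0.05 was found at 6886 CpGs. Values in heart and muscle libraries did not overlap at 3469 CpGs (10.9% of all tested), of which 2960 were among the calls. The median difference was 32.3 percentage points at CpGs higher in heart and 28.7 points at CpGs higher in muscle, against a median absolute difference of 7.23 points over all CpGs tested. A difference over 30 points was called at 1617 CpGs higher in heart and at 594 higher in muscle, and a difference over 50 points at 314 and 78. The total of 4120 depends on the method, with 2598 calls on the logit scale and 2716 without moderation of the variance.

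**Figure D1:**
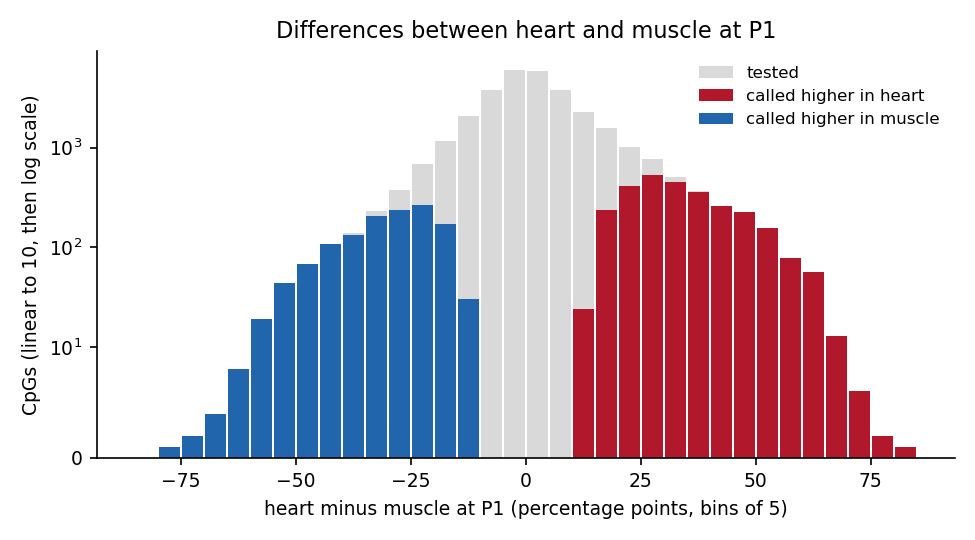
Number of CpGs by heart minus muscle methylation at P1, in bins of 5 percentage points (vertical axis linear to 10 and logarithmic above). Grey bars are all 31761 CpGs tested, and red and blue bars are the 2823 called higher in heart and the 1297 called higher in muscle; the smallest called difference was 12.2 points.

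The sequences around the CpGs with the largest differences, among those called with a value in all 9 libraries and no overlap, are shown because they are single positions that tell heart from muscle at P1. They were taken from the mm9 reference (NCBIM37), plus strand, 62 bases each, and capitals mark the CpG measured together with any match to CAGCTG or AGATAA on either strand. The first 6 CpGs were methylated in heart and mostly unmethylated in muscle.
BC057022, chr5:115059099-115059160: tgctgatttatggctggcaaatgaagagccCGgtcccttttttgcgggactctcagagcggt
Rbms3, chr9:117288775-117288836: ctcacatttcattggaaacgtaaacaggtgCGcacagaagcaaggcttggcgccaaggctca
Rnls, chr19:33143504-33143565: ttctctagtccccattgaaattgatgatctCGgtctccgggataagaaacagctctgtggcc
Pepd, chr7:35652560-35652621: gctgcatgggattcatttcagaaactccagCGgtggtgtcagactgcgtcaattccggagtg
Lhfpl2, chr13:94892989-94893050: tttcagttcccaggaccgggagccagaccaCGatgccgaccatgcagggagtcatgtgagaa
Fam19a1, chr6:96115518-96115579: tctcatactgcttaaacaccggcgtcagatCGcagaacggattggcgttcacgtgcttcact

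The next 6 were methylated in muscle and mostly unmethylated in heart.
Ajap1, chr4:152602201-152602262: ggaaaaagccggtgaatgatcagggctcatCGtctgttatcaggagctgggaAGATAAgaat
Zfpm1, chr8:124833264-124833325: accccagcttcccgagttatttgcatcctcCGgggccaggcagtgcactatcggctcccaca
Slc25a13, chr6:6249395-6249456: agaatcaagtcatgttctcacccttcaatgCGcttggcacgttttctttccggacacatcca
Hs6st1, chr1:35744166-35744227: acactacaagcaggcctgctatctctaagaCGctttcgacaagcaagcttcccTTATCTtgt
Mfhas1, chr8:36652912-36652973: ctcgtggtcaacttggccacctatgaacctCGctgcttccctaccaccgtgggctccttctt
Ces5a, chr8:96151378-96151439: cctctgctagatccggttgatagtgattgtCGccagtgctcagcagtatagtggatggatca

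The largest difference in favour of heart lay in an intron of BC057022, at chromosome 5 position 115059130. Its level was 88.2, 100, 88.9 and 91.7% in the heart libraries and 20, 24.2, 0, 5.56 and 10.8% in the muscle libraries. Heart exceeded muscle by 80.1 percentage points (SE 5.80, limma adjusted p = 0.000148), with no overlap between the tissues. At later ages, in libraries that played no part in the call, heart and muscle means were 71.0 and 17.1% at P5 and 80.8 and 28.5% at P20.

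Rbms3 encodes an RNA-binding protein. A CpG in its intron (chromosome 9 position 117288806) had 84.2, 85.7, 89.5 and 95.7% in heart and 20.7, 13.6, 0, 14.3 and 17.6% in muscle. The mean was 88.8% ± 5.13 (SD, n = 4) in heart, 13.3% ± 7.93 (SD, n = 5) in muscle and 67.4% ± 1.59 (SD, n = 4) in liver at P1, so at this position liver lay nearer to heart.

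Outside genes, 68702 bp from Rnls, the gene of renalase, a CpG at chromosome 19 position 33143535 had 84.6, 85.2, 89.7 and 91.9% in heart and 0, 13.2, 21.6, 21.9 and 9.52% in muscle. Near Pepd, which encodes the dipeptidase prolidase, the CpG at chromosome 7 position 35652591 (44807 bp from the gene) had 78.6, 100, 82.4 and 84.4% in heart and 13.5, 26.5, 2.44, 15 and 12.8% in muscle. At both CpGs every heart library was far above every muscle library, and the group means differed by 74.6 and 72.3 points (SE 5.36 and 6.04).

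In Lhfpl2, a tetraspan membrane protein gene, the CpG at chromosome 13 position 94893019 varied among hearts, with 52, 90.9, 72.7 and 94.4%, and was near 0 in muscle, with 3.85, 12.2, 0, 0 and 10.5%. The remaining CpG of this group lies where Fam19a1, which encodes a secreted chemokine-like protein, overlaps the exon of the opposite-strand gene 1700123L14Rik, at chromosome 6 position 96115548. Heart had 80.8, 86.4, 92.2 and 93.8% there and muscle had 16.7, 13.0, 20, 17.1 and 14.0%. The muscle spread was small (SD 2.76), and the SE of the 72.1-point difference was 4.35.

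The largest difference in favour of muscle was outside genes, at chromosome 4 position 152602231, 145099 bp from Ajap1, which encodes an adherens junction-associated protein. Heart had 2.27, 0, 11.9 and 12.7% and muscle had 87.5, 92.2, 79.5, 67.2 and 83.3%. Muscle exceeded heart by 75.2 points (SE 5.80, limma adjusted p = 0.000185). Liver was between them, at 40.9% ± 2.48 (SD, n = 4).

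Zfpm1 encodes FOG1, a zinc finger cofactor of GATA factors that is needed in heart and blood development. The CpG at chromosome 8 position 124833294, in its intron and also inside the long overlapping gene model Gm20388, had 10, 0, 0 and 2.56% in heart. Muscle had 30, 92.9, 89.5, 90 and 81.2%, so muscle replicate 1 lay far below the other muscle libraries but still above each heart. Liver was close to heart, at 14.6% ± 3.15 (SD, n = 4), and the heart and muscle means were 22.6 and 52.0% at P20.

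Slc25a13 encodes citrin, the mitochondrial aspartate-glutamate carrier. At 82253 bp from it (chromosome 6 position 6249426) heart had 15, 8.33, 12.2 and 2% and muscle had 82.4, 80, 93.3, 66.1 and 61.9%. Hs6st1 encodes a heparan sulfate sulfotransferase, and the CpG at chromosome 1 position 35744197 is 381048 bp away, so the gene serves as a landmark only. Heart had 24, 11.5, 26.7 and 6.10% there and muscle had 85.7, 85.3, 80, 89.5 and 80%, and muscle remained the higher tissue at P20, with 86.9 against 36.1%.

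Mfhas1 encodes a leucine-rich repeat protein with a GTPase-like domain. The CpG at chromosome 8 position 36652943 lies inside the gene and within 1 kb before an annotated transcription start. That start is not one of Mfhas1, as the nearest start of a protein-coding gene is 2091 bp away. Heart had 0, 15.4, 6.25 and 20% there and muscle had 53.3, 70.6, 100, 63.2 and 93.8%. This difference was 65.8 points at P1 by the group means of 10.4 and 76.2%, but the means stood at 54.4 and 58.3% at P20. Near Ces5a, a carboxylesterase gene 91801 bp away, the CpG at chromosome 8 position 96151408 had 33.3, 13.0, 16.2 and 11.2% in heart and 66.7, 85.5, 85.7, 76.8 and 100% in muscle, and it stayed apart at P20 with means of 25.9 and 73.4%.

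**Figure D2:**
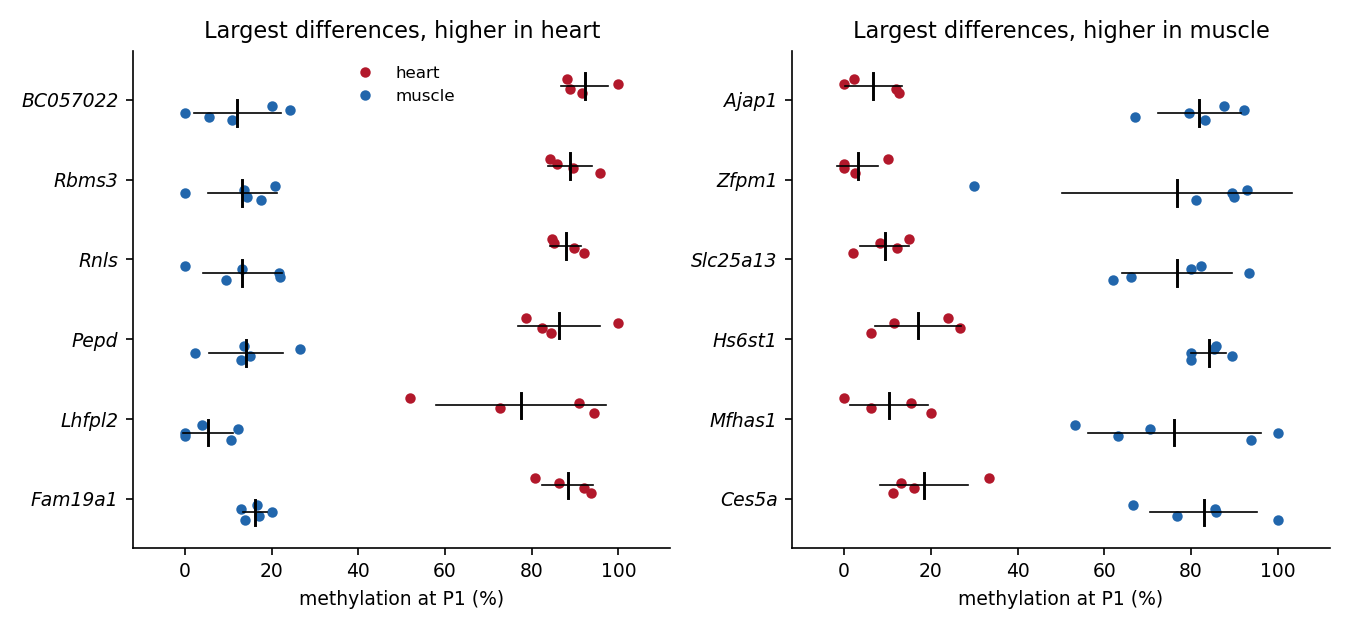
Methylation at P1 of the 6 CpGs with the largest difference in each direction among called CpGs with a value in all 9 libraries and no overlap, at most 1 per gene, labelled by the gene they lie in or nearest to. Points are libraries (4 heart, 5 muscle), vertical ticks are means and horizontal lines are ± 1 SD; heart and muscle points do not overlap at any of the 12 CpGs, which the choice of CpGs required.

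Called CpGs often lay beside another called CpG, and such called neighbours nearly always had the same direction. Among the 2934 called CpGs with another tested CpG within 50 bp, the nearest one was called in the same direction at 1646 (56.1%) and in the opposite direction at 2. Of the 19194 CpGs not called with such a neighbour, 6.73% had a called one beside them. Runs of at least 3 called CpGs of one direction, each within 1 kb of the next, formed 218 regions higher in heart, with 28.6% of those calls, and 60 regions higher in muscle, with 17.0%. Their median lengths were 49 and 41.5 bp. Reads were 50 bp per the study's methods, so CpGs this close can be counted on the same reads. Neighbours and the CpGs of a short region are therefore not independent measurements, and agreement between them is partly built in.

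Near Etnk1, the ethanolamine kinase gene, a region at chr6:143448415-143448922, 291353 bp from the gene, had 8 CpGs tested and all 8 called. Region means were 83.4, 90.4, 91.0 and 85.4% in heart and 23.4, 35.4, 36.4, 34.1 and 41.2% in muscle. In Ass1, which encodes argininosuccinate synthase of the urea cycle and of arginine synthesis, the 8 CpGs at chr2:31353296-31353331 lie in an exon of a non-coding transcript of the gene. They averaged 88.6% ± 4.68 (SD, n = 4) in heart and 37.4% ± 8.21 (SD, n = 5) in muscle, and 84.0% in liver, where the enzyme has its best known role.

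A pair of homeobox genes marked regions outside genes. At chr5:33848523-33848703, with Nkx1-1 the nearest gene at 71898 bp, 8 CpGs averaged 53.6, 70.1, 45.1 and 50.6% in the hearts and 9.35, 9.29, 4.94, 7.89 and 4.09% in the muscles. Muscle was thus nearly unmethylated and heart intermediate. At chr5:140086977-140087109, 7797 bp from Uncx, a gene of the paraxial mesoderm, 8 CpGs averaged 61.6% ± 9.47 (SD, n = 4) in heart and 21.3% ± 10.1 (SD, n = 5) in muscle. The nearest start of a protein-coding gene was 67060 bp from this region.

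In an exon of Astl, which encodes an egg protease, 7 of 8 CpGs were called at chr2:127172948-127173064, with 69.95% ± 7.01 (SD, n = 4) in heart and 29.5% ± 10.9 (SD, n = 5) in muscle.

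The region with the most calls lies on chromosome 17. At chr17:39981711-39983068, 14 of 188 CpGs were called higher in heart, and the nearest protein-coding gene, Pgk2, is 360895 bp away. From background knowledge, and not from the annotation used here, this stretch of mm9 is taken to hold a copy of the ribosomal RNA repeat, in which case reads of many copies are counted at one place, so the values are uncertain. Region means were 41.0, 43.4, 41.5 and 49.8% in heart and 24.96, 52.6, 25.9, 24.5 and 29.1% in muscle. Muscle replicate 2 thus exceeded every heart, while the other 4 muscle libraries lay below every heart. Over all 464 CpGs of this stretch, 16 were called with all libraries and 166 without muscle replicate 2. The share called with all libraries, here and in the region of 188 CpGs, was below the 8.89% of all CpGs called higher in heart.

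Among regions higher in muscle, a stretch inside Mfhas1, within 1 kb before an annotated transcription start, held 9 called CpGs at chr8:36652591-36652991. The nearest start of a protein-coding gene is 1739 bp from the stretch, so the start meant is not one of Mfhas1. The library means were 9.21, 13.8, 20.0 and 19.3% in heart and 41.9, 70.2, 87.7, 71.5 and 78.3% in muscle. Zfp423, which encodes a zinc finger factor of fat cell precursors and brain development, had 9 of 13 CpGs called 519 bp outside the gene at chr8:90184439-90185190. The nearest start of a protein-coding gene was 96687 bp from there. Heart was at 11.03% ± 1.21 (SD, n = 4) and muscle at 37.6% ± 5.50 (SD, n = 5).

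Lrp8 encodes a receptor for reelin and apolipoprotein E. At chr4:107518839-107518953, in an exon of the gene, 8 of 11 CpGs were called, with 5.62, 9.26, 10.2 and 4.67% in heart and 40.1, 44.5, 29.5, 36.4 and 32.5% in muscle. The gene C530008M17Rik had 6 of 9 CpGs called across its promoter and an exon (chr5:77286776-77287159), at 8.24% ± 4.18 (SD, n = 4) in heart and 37.4% ± 11.9 (SD, n = 5) in muscle. Liver was at 42.6 and 49.0% in these regions, nearer to muscle than to heart.

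Dchs1 encodes an atypical cadherin of tissue polarity, and 5 of 6 coding CpGs at chr7:112911159-112911201 were called, with 20.0% ± 11.6 (SD, n = 3) in heart, where replicate 2 had no value, and 57.7% ± 8.33 (SD, n = 5) in muscle. In coding sequence of Mtap7d1, a microtubule-associated protein gene, 5 of 6 CpGs at chr4:125914231-125914260 were called, and heart ranged from 10.1 to 45.2% while muscle ranged from 56.8 to 74.5%. Sik1 encodes a salt-inducible kinase that acts on class II histone deacetylases in muscle cells. In its intron, at chr17:31990186-31990319, 5 of 6 CpGs were called, with 21.9, 10.3, 11.6 and 11.5% in heart and 47.8, 40.8, 40.4, 41.6 and 32.6% in muscle. The remaining region, at chr16:87611346-87611677 and 15765 bp from ORF63, had all 8 CpGs called, with 34.9% ± 3.65 (SD, n = 4) in heart and 78.1% ± 8.99 (SD, n = 5) in muscle.

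**Figure D3:**
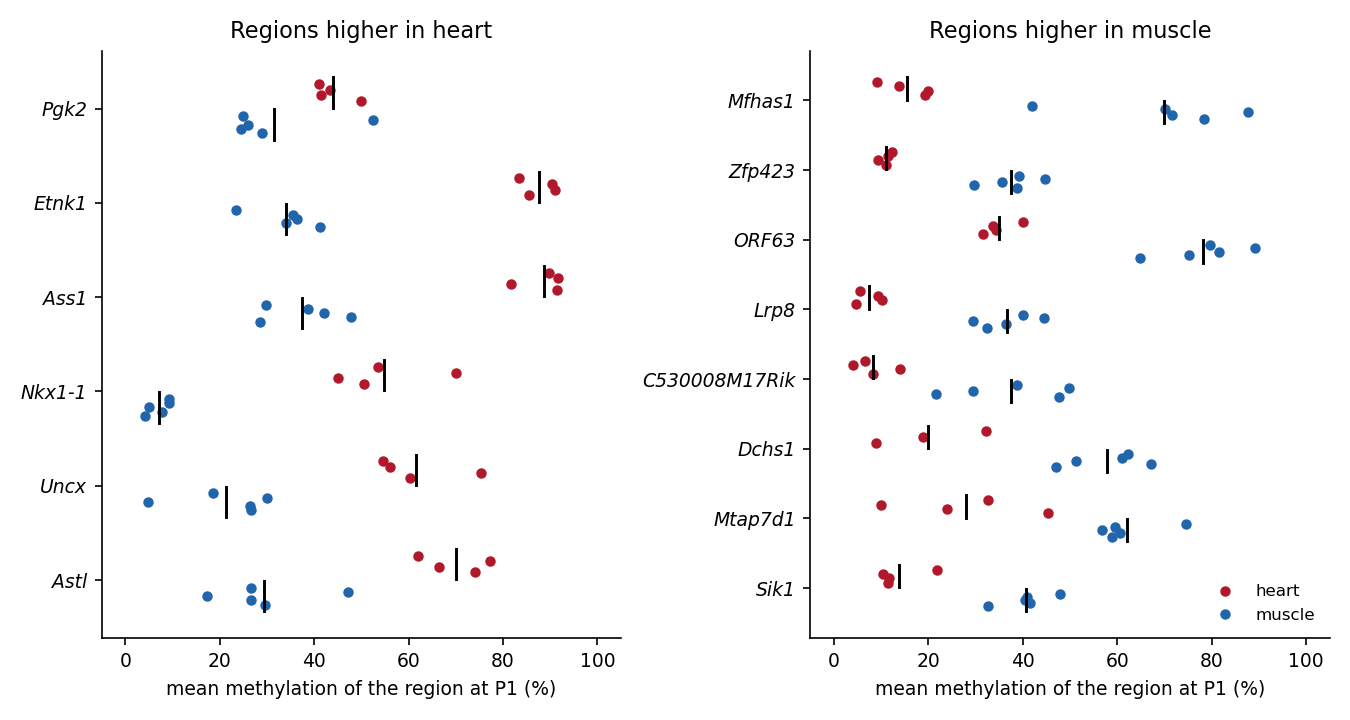
Mean methylation at P1 of 6 regions higher in heart and 8 higher in muscle, from those with the most called CpGs, labelled by the gene they lie in or nearest to. Points are libraries and vertical ticks are their means; at the repeat region labelled Pgk2 muscle replicate 2 (52.6%) lies above the hearts, and elsewhere the tissues do not overlap.

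Calls were less frequent at gene starts and in dense CpG clusters. Within 1 kb before a transcription start, 213 of 2364 CpGs were called (9.01%), against 9.07% in exons, 14.8% in introns and 14.1% outside genes, beside 13.0% of all CpGs. Of CpGs over 50 kb from the nearest start of a protein-coding gene, 15.4% were called, against 8.36% within 1000 bp. With 20 or more CpGs within 200 bp, 4.65% were called, and there the directions were close to even, with 110 higher in heart and 113 higher in muscle. With 5 to 9 CpGs within 200 bp, 15.96% were called, 1403 higher in heart and 557 higher in muscle. CpGs at which the 9 libraries averaged 40 to 60% were called in 30.5%, whereas those averaging 80% or more were called in 2.11%. These are the libraries of the calls, and a mean of 80% or more leaves little room for a large difference. This contrast is therefore partly fixed in advance. On the X chromosome 5 of 210 CpGs were called.

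Short sequences known to be bound by transcription factors were counted around the called CpGs. The E-box CAGCTG, bound by myogenic factors such as MyoD, occurred within 100 bases of the CpG at 655 of 2821 CpGs higher in heart (23.2%), that is, at CpGs lower in muscle (mean 29.4%). It occurred at 11.1% of CpGs higher in muscle and at 14.0% of all CpGs tested with such a window. The GATA-factor sequence AGATAA showed the opposite: it was found at 270 of 1295 CpGs higher in muscle (20.8%), which are lower in heart (mean 32.7%), at 5.92% of those higher in heart and at 7.13% of all. Both strands were searched, and the windows of neighbouring CpGs overlap. With one CpG per kb, the shares were 21.9, 11.3 and 14.0% for CAGCTG and 5.46, 20.2 and 7.86% for AGATAA, in the same order.

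The same held at CpGs with 5 to 9 CpGs within 200 bp, where AGATAA was found at 25.7% of CpGs higher in muscle and 8.83% of all, and CAGCTG at 23.1% of those higher in heart and 14.2% of all. The TEAD sequence GGAATG was found at 13.7% of CpGs higher in heart, 12.05% of those higher in muscle and 11.2% of all, and the AP-1 sequence TGANTCA at 6.31, 5.79 and 4.72%. With 5 to 9 CpGs within 200 bp the shares were 14.9, 12.2 and 13.05% for GGAATG, so that it was then less frequent near CpGs higher in muscle than in all, and 6.99, 6.82 and 6.23% for TGANTCA. The MEF2 core TAAAAATA (1.31, 1.16 and 1.08%), the T-box sequence GGTGTGA (3.90, 3.78 and 3.37%) and the E-box CACGTG of Myc and USF proteins (3.90, 2.86 and 3.73%) were close to the share in all windows. The Sp1 sequence GGGCGG was found at 6.06% of CpGs higher in heart, 8.34% of those higher in muscle and 10.3% of all, and at 3.49, 4.85 and 4.18% with 5 to 9 CpGs within 200 bp, so the order for CpGs higher in muscle changed with CpG density. A match is a description of the letters, and binding was not measured.

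**Figure D4:**
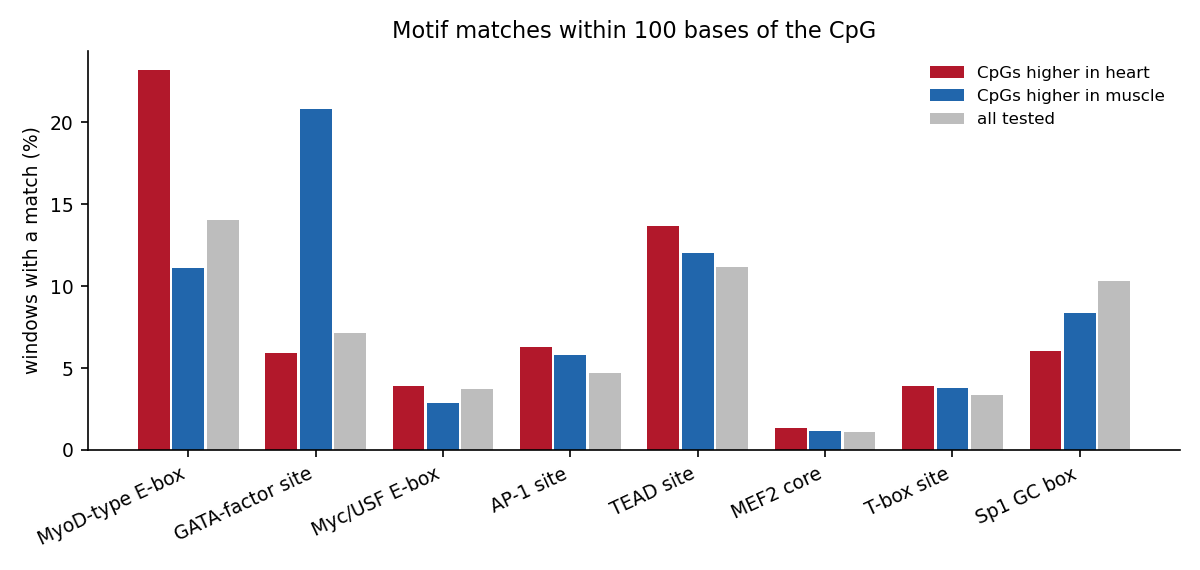
Percent of windows reaching 100 bases to each side of a CpG that hold a match to each of 8 sequences on either strand, for CpGs called higher in heart, called higher in muscle and all tested. The MyoD-type E-box is most frequent near CpGs higher in heart (23.2%) and the GATA-factor site near CpGs higher in muscle (20.8%).

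Examples of both sequences beside CpGs with large differences are given as above, chosen after their values were seen as the 3 largest differences in each direction with the sequence within 30 bases, leaving out the genes already shown. The first 3 were higher in heart and hold CAGCTG.
Tcf7l2, chr19:56164696-56164757: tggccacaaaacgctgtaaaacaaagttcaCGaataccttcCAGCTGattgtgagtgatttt
Eml1, chr12:109613064-109613125: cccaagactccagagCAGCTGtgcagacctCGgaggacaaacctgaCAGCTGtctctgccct
Col27a1, chr4:62882818-62882879: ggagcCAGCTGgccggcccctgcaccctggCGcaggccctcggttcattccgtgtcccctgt

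The other 3 were higher in muscle and hold AGATAA or its complement TTATCT.
Polr1a, chr6:71930455-71930516: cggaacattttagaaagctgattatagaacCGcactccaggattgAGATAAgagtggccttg
Myo10, chr15:25539214-25539275: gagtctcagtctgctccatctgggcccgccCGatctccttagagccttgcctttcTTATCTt
Pla2g1b, chr5:115920712-115920773: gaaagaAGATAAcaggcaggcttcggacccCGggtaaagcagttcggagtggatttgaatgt

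Tcf7l2, 156583 bp from its CpG, encodes a transcription factor of Wnt signalling, and heart and muscle had means of 74.6% ± 12.4 (SD, n = 4) and 14.5% ± 13.2 (SD, n = 5) there. In introns of Eml1, a microtubule-associated protein gene, and Col27a1, a fibrillar collagen gene, the means were 76.4 and 18.8%, and 83.8 and 27.2%. The CpG near Polr1a, the gene of the large subunit of RNA polymerase I, was at 9.84% ± 5.18 (SD, n = 4) in heart and 68.4% ± 13.6 (SD, n = 5) in muscle. That near Myo10, an unconventional myosin gene, was at 8.41 and 66.4%. Among the 12 CpGs with the largest differences, AGATAA or TTATCT lay in the printed window of Ajap1 and Hs6st1, both low in heart. The other printed windows of those higher in muscle lacked it, and no printed window of those higher in heart held CAGCTG.

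Hox genes were called higher in muscle more often than all CpGs. Of their 82 CpGs, in 27 of 39 genes, 16 were called (19.5%), 13 higher in muscle and 3 higher in heart, against 4.08 and 8.89% of all CpGs. The median heart minus muscle difference was -6.09 points, against 0.87 over all CpGs. Mean levels were low in both tissues, at 7.76% in heart and 16.3% in muscle. In the Hoxa cluster, 29 CpGs averaged 6.59 to 8.58% in the hearts and 16.9 to 23.3% in the muscles, and 5 were called, all higher in muscle. The Hoxd cluster (22 CpGs) was also apart, at 5.41 to 8.53% and 9.91 to 15.1%, whereas the libraries overlapped in Hoxb (21 CpGs, hearts 2.04 to 10.96%, muscles 8.35 to 16.4%) and in Hoxc (10 CpGs, hearts 8.97 to 14.2%, muscles 13.8 to 28.5%).

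The CpG with the largest difference of the list lies in an untranslated exon of Hoxc5, at chromosome 15 position 102846053, and also counts to Hoxc4. It had 16.7, 7.14, 6.90 and 3.26% in heart and 81.2, 92.6, 75.6 and 77.4% in 4 muscles, with no value in muscle replicate 3. Liver was low as well (12.8%), and muscle exceeded heart by 73.2 points (SE 5.49, limma adjusted p = 0.000205). In the coding exon of Hoxa3, which patterns the neck region, the CpG at chromosome 6 position 52120571 had 8.33, 4.17, 0 and 3.39% in heart and 62.5, 59.5, 87.5, 33.3 and 63.2% in muscle. Hoxd3 differed by 43.4 points at chromosome 2 position 74566361, with 6.21% ± 4.48 (SD, n = 4) in heart and 49.6% ± 9.17 (SD, n = 5) in muscle. CpGs higher in heart were called at Hoxb1, at Hoxc10 and at a position that counts to Hoxd3 and Hoxd4.

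Other genes of position had 91 CpGs in 15 genes, and 6 were called (6.59%), all higher in muscle (median difference -5.66 points). Of all CpGs, 13.0% were called in either direction and 4.08% higher in muscle. Among their genes were Alx4, a homeobox gene of limb and skull (29.9 points), and Lhx2, a LIM homeobox gene (27.7 points, 5.07% in heart and 32.8% in muscle).

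Cardiac transcription factors were mostly unmethylated in both tissues. Of 92 CpGs in 13 of 17 genes, 8 were called (8.70%, against 13.0% of all CpGs). At Nkx2-5, the NK2 factor of the heart field, 5 CpGs averaged 5.06% in heart and 6.47% in muscle, and at Gata4 3 CpGs averaged 10.3 and 7.37%, with none called. Hopx, a homeodomain-only gene of heart muscle, had all 3 of its CpGs called higher in muscle. Its CpG at chromosome 5 position 77543679 had 43.2, 8, 28.9 and 32.1% in heart and 88, 91.9, 70, 83.3 and 95.8% in muscle, and 86.6% in liver. By P20 the heart and muscle means there were 66.3 and 70.9%. Tbx5, a T-box factor of heart and forelimb, showed the reverse, with 4 of 9 CpGs called higher in heart. The intronic CpG at chromosome 5 position 120316782 had 47.1, 60 and 28% in the 3 hearts with a value and 13.6, 11.3, 17.9, 11.8 and 18.2% in muscle, and Tbx3, also a T-box gene, had 1 of 18 CpGs called higher in heart (28.4 points).

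Transcription factors of skeletal muscle had 31 CpGs in 6 of 16 genes, of which 2 CpGs were called (6.45%), both higher in muscle. The shares over all CpGs were 13.0% in either direction and 4.08% higher in muscle. Pax7, which marks muscle stem cells, had 0, 3.33, 1.75 and 7.45% in heart and 40.7, 39.5, 35.7, 15.6 and 47.5% in muscle at an intronic CpG (chromosome 4 position 139317981). Tbx1, a gene of the pharyngeal mesoderm, differed by 21.1 points. At Myog, the gene of myogenin, the single CpG was at 19.4% in heart and 4.70% in muscle and was not called.

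Genes of the heart's contractile and conduction systems had 10 of 43 CpGs called (23.3%, against 13.0% of all), 5 in each direction. Myh6, the cardiac alpha myosin heavy chain, had 53.8, 40, 23.3 and 38.8% in heart and 100, 71.0, 87.5, 74.1 and 86.7% in muscle at an intronic CpG (chromosome 14 position 55561334), a difference of 44.8 points (SE 7.44). In an intron of Cacna1c, the cardiac L-type calcium channel, the CpG at chromosome 6 position 118817570 was higher in muscle by 45.8 points, but of the gene's 14 CpGs 4 were called higher in heart and 3 higher in muscle. Kcnq1, a potassium channel of repolarization, was higher in heart at chromosome 7 position 150519191, with 64.0% ± 13.1 (SD, n = 4) against 23.6% ± 12.4 (SD, n = 5). Heart and muscle means at P20 were 52.1 and 56.0% at this CpG of Myh6, 36.9 and 36.8% at that of Cacna1c and 43.9 and 40.2% at that of Kcnq1. At chromosome 7 position 4472347, inside Tnni3 (cardiac troponin I) and before the start of Tnnt1 (slow skeletal troponin T), heart had 0, 0, 0 and 10.8% and muscle had 27.5, 8.70, 33.3, 40 and 40%. That position overlapped between the tissues through muscle replicate 2 and counts to both the cardiac and the skeletal list.

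Skeletal contractile and excitation genes had 6 of 38 CpGs called (15.8%, near the 13.0% of all), of which 5 were higher in muscle. Pvalb, which encodes the calcium buffer parvalbumin of fast fibres, was the exception. Its coding-exon CpG at chromosome 15 position 78033069 had 90, 62.5, 55.6 and 71.1% in heart and 30.8, 4.17, 5.56, 30.4 and 18.8% in muscle (limma adjusted p = 0.00325). Cacng1, a subunit of the skeletal calcium channel, was higher in muscle by 28.6 points, and Ckm, the muscle creatine kinase, by 23.2 points. Sarcomere genes that both tissues use had 2 of 39 CpGs called (5.13%, against 13.0% of all), at Ckmt2 (mitochondrial creatine kinase, higher in heart by 40.6 points) and Tpm1 (tropomyosin, higher in muscle by 35.0 points).

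Metabolic lists were small and are read against the 13.0% of all CpGs called. Fatty acid oxidation genes had 3 of 17 CpGs called (17.6%), including Cpt1b, the muscle form of the mitochondrial fatty acid importer, higher in muscle by 42.0 points, and Esrra, a nuclear receptor of energy metabolism, higher in heart by 15.2 points. Glycolysis genes had 1 of 14 called (7.14%), at Hk2 (hexokinase), with 5.80% in heart and 35.5% in muscle.

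Lists of markers of other cells that whole heart or muscle can hold were described in the same way, beside 13.0% of all CpGs called, and their part in the differences was not tested. Endothelial markers had 5 of 29 CpGs called (17.2%), all in Erg, an endothelial transcription factor, whose largest difference was 50.5 points higher in heart (86.2% ± 13.7, SD, n = 4, against 35.7% ± 18.9, SD, n = 5). Blood cell markers had 1 of 11 called (9.09%; Laptm5, 18.8 points higher in muscle), smooth muscle and pericyte markers 3 of 14 (21.4%; Pdgfrb higher in heart by 31.6 points and Tagln higher in muscle by 27.7), nerve markers 1 of 13 (7.69%; Mbp, 21.3 points higher in muscle) and fat cell markers 5 of 20 (25%), including a CpG of Lep higher in heart by 27.6 points and 4 of 18 CpGs of Ebf2, 2 in each direction, the largest 30.3 points higher in muscle. Fibroblast (9 CpGs), epicardial and endocardial (12) and skin and cartilage markers (14) had 0 called by limma, with an unadjusted p under 0.05 at 3, 1 and 1 CpGs. Of the list genes named, the calls at Ckm, Ckmt2, Cpt1b, Esrra, Laptm5, Lep, Tbx3 and Tpm1 were lost when some single library was left out, those at Alx4, Ckm, Esrra, Laptm5, Lhx2, Mbp, Tagln and Tbx5 in the fit of all ages, and those at Cacng1, Ckm, Esrra, Laptm5, Lep, Pdgfrb, Tbx1, Tbx3 and Tbx5 with the replicate number as a block. At later ages, 4 of the 30 CpGs with the largest called difference in the lists had the other order of the tissue means at P5, 7 at P15 and 7 at P20. At P20 the CpG of Ckm was at 49.95% in heart and 18.6% in muscle, that of Tagln at 60.3 and 24.4%, and that of Lhx2 at 33.4 and 15.9%, the reverse of P1.

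The overall level of methylation was close to the limit of the test between the tissues, and its call changed with the way it was computed. Over the 27014 CpGs with a value in all 9 libraries, the mean was 50.3, 50.7, 50.3 and 51.4% in heart and 47.1, 51.4, 46.8, 47.6 and 48.2% in muscle. Heart exceeded muscle by 2.44 percentage points, with overlap through muscle replicate 2 (two-sided exact permutation test over all assignments of the libraries, p = 0.0635, smallest possible 0.00794). With the same 9 libraries the exact permutation p was 0.0476 on autosomes (2.47 points) and with both strands of a CpG averaged (2.40 points), and 0.0397 for the median over CpGs (6.77 points) and without the chromosome 17 repeat (2.33 points). Without muscle replicate 2 the difference was 3.25 points and the tissues no longer overlapped (exact permutation p = 0.0286, the smallest that 4 against 4 allows), whereas with each of the other 8 libraries left out in turn it was 0.125 to 0.143, and it stayed at 0.0635 with at least 3 values on each side and with the mm10 tables. Muscle replicate 2 also had a mean of 65.2% on the X chromosome, against 56.1 to 59.2% in the other muscles. Without it, limma called 4000 CpGs, 2943 higher in heart and 1057 higher in muscle, of which 3411 were among the 4120. The CpGs called without it held CAGCTG at 22.0% (higher in heart) and AGATAA at 21.7% (higher in muscle).

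In classical multidimensional scaling of the 9 libraries, the first coordinate held 36.5% of the variance and separated all hearts from all muscles, muscle replicate 2 included. The second held 10.9%. Pairs of libraries of one tissue differed by 15.2 to 17.6 points (root mean square) among hearts and by 15.3 to 17.9 points among muscles, whereas a heart and a muscle differed by 19.5 to 23.2 points.

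Liver at P1 (4 libraries) played no part in the calls and was set beside both tissues. At 2568 CpGs higher in heart with at least 3 liver values, liver averaged 59.0% ± 2.01 (SD, n = 4), beside 63.9% in heart and 29.9% in muscle, and it lay nearer to heart at 77.7% of them and between the heart and muscle means at 58.96%. At 1194 CpGs higher in muscle, liver averaged 53.7% ± 1.95 (SD, n = 4), beside 33.4% in heart and 64.1% in muscle, and it lay nearer to muscle at 59.97%, nearer to heart at 40.03% and between the means at 61.9%. Over all 28157 such CpGs liver lay nearer to heart at 55.0% and between the means at 30.4%. On these CpGs limma called 13.6% between heart and muscle, 15.2% between heart and liver and 25.5% between muscle and liver, and the comparisons share libraries.

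Differences of P1 were seen again, at smaller size, in libraries of other ages. As averages of the library means over the CpGs each library measured, CpGs called higher in heart at P1 had means of 55.4% in heart and 36.2% in muscle at P5, 58.7 and 33.4% at P15, and 58.0 and 35.6% at P20, and the heart mean exceeded the muscle mean at 88.4, 91.0 and 90.6% of them. Over all CpGs heart was the higher tissue at 48.3, 57.1 and 58.9%. CpGs called higher in muscle were at 38.7 and 58.4% at P5, 40.8 and 56.1% at P15 and 42.5 and 52.2% at P20, and the muscle mean was the higher at 87.0, 81.4 and 77.2% of them, against 51.6, 42.7 and 41.0% of all. Taken CpG by CpG from the group means, each CpG counting equally, the mean difference of the CpGs higher in muscle was -30.7 points in the P1 libraries, then -19.5 (P5), -15.2 (P15) and -11.1 (P20), and that of the CpGs higher in heart was 34.1, 20.2, 24.97 and 21.5. Muscle replicate 2 of P20 stood apart, with a mean over all CpGs of 38.3% against 49.0 to 50.2% in the other P20 muscles. Without it the P20 means were 58.0 and 38.1% at CpGs higher in heart and 42.6 and 54.5% at CpGs higher in muscle, with mean differences of 20.5 and -11.5. The values at P1 are those the calls were made on, and a smaller difference outside the chosen libraries does not measure a change with age.

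**Figure D5:**
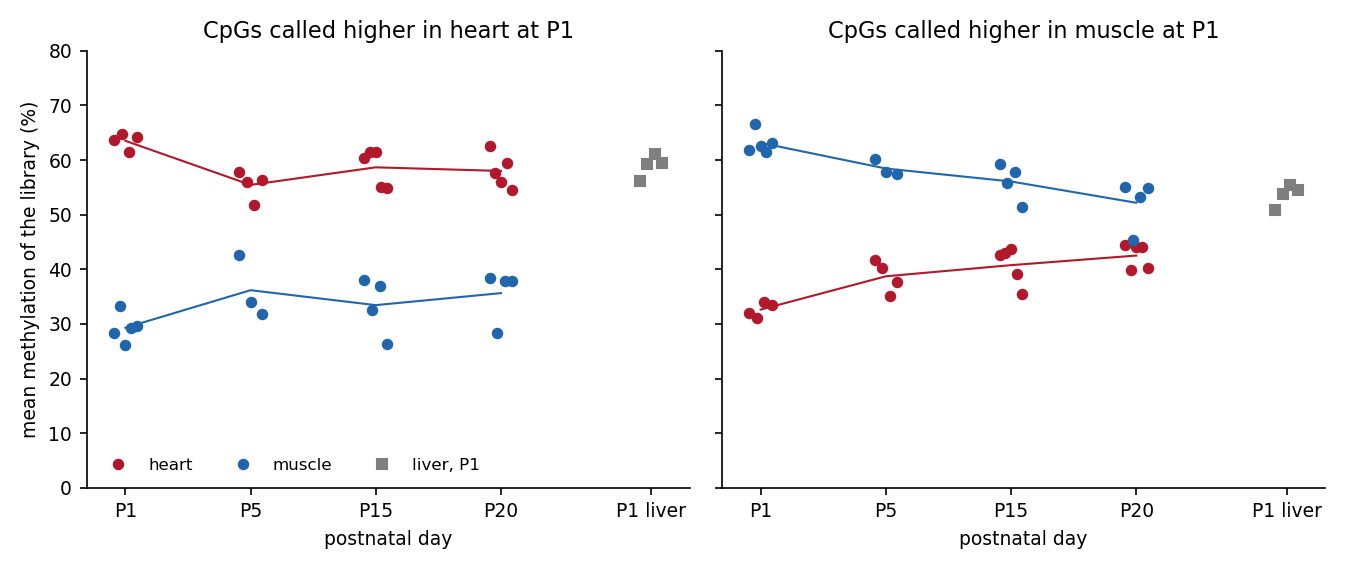
Mean methylation of each library at the CpGs called higher in heart at P1 (left) and higher in muscle at P1 (right), by postnatal day, with liver at P1. Points are libraries and lines join group means; the library means of heart and muscle do not overlap at any age shown, with means of 58.0 and 35.6% (left) and 42.5 and 52.2% (right) at P20.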

How the data were processed

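RRBS was done by the authors on DNA cut with MspI, and reads were aligned to mm9 with Bismark 0.7.6 and Bowtie2. The authors deposited a methylation fraction for each CpG and library, the share of its reads that were methylated, which was multiplied by 100 here. Per the study's methods, values under 10 reads were set to missing, and CpGs missing in more than 20% of samples or under 10% in all samples were removed. The methods do not say whether this was done tissue by tissue, which is assumed here because the tissue tables hold different CpGs. If so, a CpG unmethylated throughout one tissue is not among those compared, and cannot be told apart from one lost for coverage. The depth behind single values is unknown, so no binomial interval is given, and 0.00315 to 4.71% of values were missing per library. The labels give no sequencing batch.

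Heart and muscle were compared with limma 3.58.1 in R 4.3.3 (lmFit, eBayes) on percent methylation, with Benjamini-Hochberg adjustment over all 31761 CpGs. Calls required an adjusted p no higher than 0.1 and a difference over 5 percentage points. Overall means of the libraries were compared by a two-sided exact permutation test. Genes and contexts came from GENCODE vM1 on NCBIM37 (mm9), with promoters as 1 kb before a transcription start. A CpG counted to a gene within it or within 5 kb before its start. Regions named were the 8 per direction with the most called CpGs, and CpGs named were the 6 per direction with the largest difference among those called with a value in all 9 libraries and no overlap, at most 1 per gene and per 10 kb. For each of 17 gene lists the 4 genes with the largest called difference were named. Some named regions and genes are not reported here. Members, lists and sequences searched were chosen with earlier results of these data known. In 22 table columns no sample of the labels was matched, and these were not used. On simulated data with the spread of these libraries, 68, 359 and 770 of 1500 CpGs changed by 10, 20 and 30 points were called, with 132 false calls. Counts and plots were made in Python 3.11.15 (pandas 2.3.3, numpy 2.4.6, matplotlib 3.10.9). The alternatives covered the scale, the moderation, the limits, missing values, autosomes, both strands, mm10 tables, all ages in one fit, the replicate number as a block and each library left out. Leaving out the chromosome 17 repeat, using 4 libraries of each tissue without the block, and leaving out muscle replicate 2 of P20, were chosen after seeing the data.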

Additional observations from a re-analysis of the deposited data

Results flagged for a closer look

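Of 60 groups of libraries checked for a value far from the others, 4 stood out, and chance gives about 1 in 20. In the region of the chromosome 17 repeat nearest to Pgk2, muscle replicate 2 was at 52.6%, above the other muscle libraries. At the Zfpm1 CpG on chromosome 8, muscle replicate 1 was at 30%, below the other muscle libraries. In the Sik1 region, heart replicate 2 was at 21.9%, above the other hearts. In the Mtap7d1 region, muscle replicate 1 was at 74.5%, above the other muscles.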

How the results depend on the processing

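The depth behind each value is unknown, and CpGs unmethylated throughout one tissue are missing from the comparison if the filter was applied tissue by tissue. The number of calls fell from 4120 to 2598 on the logit scale, 2716 without moderation of the variance and 2211 with a limit of 30 points, and ranged from 3242 to 4000 with a library left out. The share higher in heart, 68.5%, was 73.1% with a limit of 30 points, 71.4% at an adjusted p of at most 0.05, 72.7% without muscle replicate 2 and the chromosome 17 repeat, 66.1% with the 4 numbers both tissues have and no block, and 66.1 to 73.6% with a library left out, the highest without muscle replicate 2. The difference in overall mean, 2.44 points, passed an exact permutation p of 0.05 at 2.47 points on autosomes (p = 0.0476), 6.77 for the median over CpGs (p = 0.0397), 2.40 with strands averaged (p = 0.0476), 2.33 without the repeat (p = 0.0397) and 3.07 without the repeat and muscle replicate 2 (p = 0.0286), and ranged from 2.10 to 3.25 with a library left out (p from 0.0286, without muscle replicate 2, to 0.143). The cause was not tested.

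With the replicate number as a block, 3051 CpGs were called, 68.6% of them higher in heart, against 3684 with the same libraries and no block, and the paired difference in overall mean was 2.15 points (exact sign-flip p = 0.25, smallest possible 0.125). Same-numbered hearts and muscles did not deviate together (correlations from -0.0226 to 0.0433 over 27014 CpGs, against -0.0296 to 0.0407 for other pairs), and 1 of 4 hearts correlated best with its own number. Tissues of one pup need not deviate together, so these correlations cannot decide whether the numbers are pairs. The main comparison leaves them unpaired, and the block is given beside it. Of the 42 CpGs the naming rule selected, 9 calls were lost under the replicate block, 9 in the fit of all ages and 9 with some library left out. Under the block or with a library left out 0 changed direction, but CpGs chosen for large called differences could hardly do so. The fit of all ages keeps the P1 difference by construction. Lost calls with a library left out included Lep without heart 5 (24.6 points, heart minus muscle), Tbx3 without heart 3 or 5 (23.4 to 26.3), Cpt1b without heart 3 or muscle 3 or 4 (-41.5 to -36.4), Ckm without heart 2, 3 or 5 or muscle 3 (-23.1 to -21.1), Ckmt2 without heart 2 or 3 or muscle 1, 3 or 5 (31.7 to 38.5), Tpm1 without heart 2, 3 or 5 or muscle 2, 4 or 5 (-34.9 to -27.9), Esrra without heart 2, 4 or 5 or muscle 1, 3, 4 or 5 (11.8 to 16.4) and Laptm5 without heart 2, 4 or 5 or any muscle library (-19.8 to -13.5).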

Other observations

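CpGs found only in the muscle table had a lower mean methylation at P1 than CpGs found only in the heart table. Of 21523 CpGs in the heart table but not the muscle table with at least 3 heart values at P1, the mean was 50.2% and 32.3% were under 20%. Of 14244 in the muscle table but not the heart table, the mean was 26.1% and 61.8% were under 20%. These CpGs have no value of the other tissue here and enter no comparison.

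Muscle replicate 2 was above the mean of the other 4 muscle libraries by over 30 points at 1009 CpGs and below it by over 30 points at 139. At the 1009 CpGs it averaged 70.3%, the other muscles 32.9%, heart 47.8% and liver 49.2%, and 90 of them were called higher in heart and 30 higher in muscle. In the other muscle libraries the CpGs above by over 30 points numbered 278 to 468 and those below 411 to 894, and replicates 1 and 3 had 1362 and 1157 CpGs beyond 30 points in either direction, against 1148 in replicate 2.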
